A study of Mus musculus with 6 samples.

Results

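The genes described here encode subunits of the 5 complexes of oxidative phosphorylation, together with the complex I assembly factors that carry the same family name. This family was chosen with earlier results of these data known, and its members were then taken by symbol. Symbols beginning with Nduf were taken for complex I, Sdha, Sdhb, Sdhc and Sdhd for complex II, Uqcr for complex III, Cox4 to Cox8 for complex IV and Atp5 for complex V. A gene entered when at least 1 probe set was paired with its symbol alone, and its brightest such probe set was used. This gave 89 of the 19938 genes measured in this way, with 43 in complex I, 4 in complex II, 8 in complex III, 17 in complex IV and 17 in complex V. RNA of whole thymus was hybridized to Affymetrix MoGene-1 arrays, 1 array for each biological replicate. The RUNX2/MYC group held 3 arrays of mice with the genotype CD2-Myc/CD2-Runx2, in which control elements of the T-cell gene CD2 drive both oncogenes in T cells. The WT group held 3 arrays of C57/CBA mice without transgenes. Both groups shared the C57BL6/CBA background and an age of 10 days, when the transgenic thymus holds an expanded premalignant population and lymphoma has yet to develop. The comparison asks which expression changes come early in the collaboration of the 2 oncogenes. Mice with 1 transgene alone were not arrayed, so the parts played by Myc and Runx2 cannot be told apart, and expression of the transgenes themselves was not analysed here because the annotation pairs no probe set with Runx2 alone.

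Oxidative phosphorylation is the final stage of cellular respiration in the inner mitochondrial membrane. Complexes I and II feed electrons from NADH and succinate to ubiquinone, complex III passes them to cytochrome c, complex IV transfers them to oxygen, and complex V, the ATP synthase, uses the proton gradient built up by complexes I, III and IV to make ATP. Most subunits are encoded in the nucleus, whereas a small set of membrane core subunits is encoded by mitochondrial DNA. Thymocytes that proliferate draw on mitochondrial respiration as well as glycolysis, and some subunits of complex IV have isoforms that are largely restricted to heart and skeletal muscle, brown fat, lung or testis. Ndufa4 is listed under complex I by its name, although it is now counted as a subunit of complex IV.

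Genes of the 5 complexes tended to lie a little higher in RUNX2/MYC thymus than in WT. Those of complex IV did so no more than genes of like signal, which are described below. The log2 fold change (RUNX2/MYC minus WT) was above 0 for 84 of the 89 genes and below 0 for 5, and its median was 0.23, whereas the median over all genes was -0.07 and 40.2% of all genes had a value above 0. Only 2 of the 89, Ndufaf4 and Ndufab1, both of complex I, passed an adjusted p of 0.05 (limma, adjusted over all probe sets) as higher, and 0 passed as lower. Across all genes 2.27% passed as higher and 0.0953% as lower. At an unadjusted p under 0.05, 37 of the 89 were higher and 0 lower (limma), against 13.2% and 8.01% of all genes. RNA came from whole thymus, so fewer cells of a type and less RNA per cell cannot be told apart in any of these values.

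The separation of the groups showed the same direction without a model. For 53 of the 89 genes every RUNX2/MYC array lay above every WT array, and for 0 every one lay below, while 15.5% of all genes were separated upward and 11.2% downward. Bright genes in general tended upward in this comparison. Of the 3464 genes whose mean log2 signal lay between 9.42 and 11.6, the interquartile range of the 89, 33.3% were separated upward, 74.9% had a log2 fold change above 0 and the median was 0.13. The count of 53 was 34 when the values were quantile normalized again, 27 when arrays were centred on the 75th percentile and 28 after cyclic loess, with 1 gene separated downward under each of the 3.

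**Figure D1:**
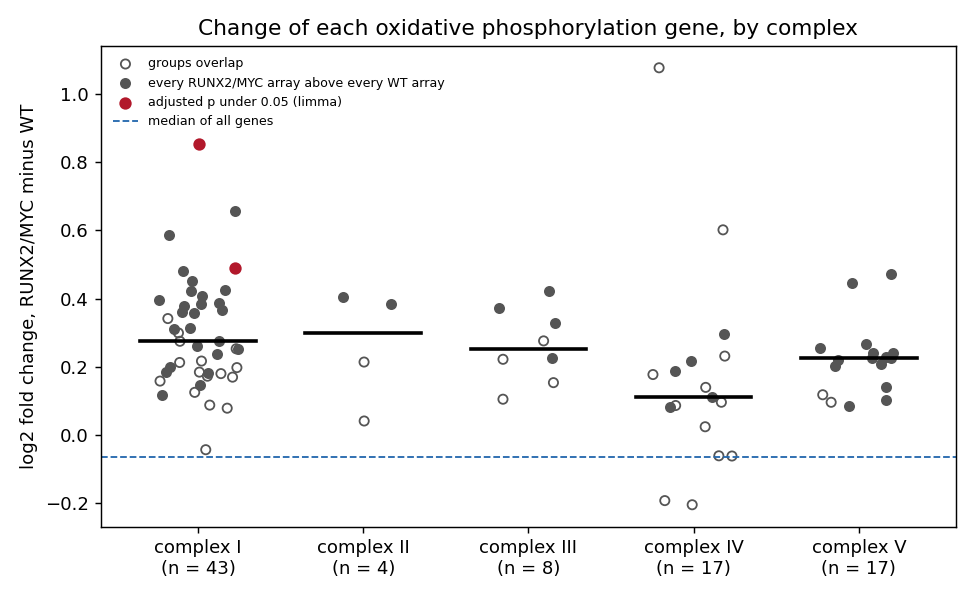
Log2 fold change (RUNX2/MYC minus WT, y axis) of each of the 89 genes, by complex (x axis). Red points passed an adjusted p of 0.05 (limma), filled grey points had every RUNX2/MYC array above every WT array, open points had overlapping groups, bars are the medians of each complex (0.28, 0.30, 0.25, 0.11 and 0.23 for complexes I to V) and the dashed line is the median of all genes (-0.07). Nearly all points lie above the dashed line, and the 2 high open points of complex IV are Cox8b and Cox7a1.

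Promoter sequence is shown for 3 genes, the 2 that passed the test and Atp5g1, which had the highest fold change of complex V. The sequences are the 250 bases before the annotated start in RefSeq (GRCm38.p6), written 5′ to 3′ on the strand of the gene, with the matched motif in capitals. They lie at chr4:24897833-24898082 (plus strand) for Ndufaf4, chr7:122101849-122102098 (minus strand) for Ndufab1 and chr11:96075632-96075881 (minus strand) for Atp5g1. Capitals mark the core of the NRF1 motif, GCGCATGC, in Ndufaf4, where a match that begins at -113 from the start overlaps a match on the opposite strand that begins at -111, the RUNX motif TGTGGT in Ndufab1, which reads ACCACA here because it lies on the opposite strand and begins at -148, and the E-box CACGTG, the site bound by MYC with MAX, in Atp5g1, which begins at -44.
Ndufaf4: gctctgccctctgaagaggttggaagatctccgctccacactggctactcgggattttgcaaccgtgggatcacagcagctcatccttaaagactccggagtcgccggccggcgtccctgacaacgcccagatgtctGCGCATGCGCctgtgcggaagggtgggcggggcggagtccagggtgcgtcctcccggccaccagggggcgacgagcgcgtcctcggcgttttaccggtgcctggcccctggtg
Ndufab1: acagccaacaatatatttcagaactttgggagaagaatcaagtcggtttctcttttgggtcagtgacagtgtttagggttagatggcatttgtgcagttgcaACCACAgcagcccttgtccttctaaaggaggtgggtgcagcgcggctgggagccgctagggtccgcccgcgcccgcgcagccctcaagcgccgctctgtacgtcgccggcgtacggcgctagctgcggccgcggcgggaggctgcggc
Atp5g1: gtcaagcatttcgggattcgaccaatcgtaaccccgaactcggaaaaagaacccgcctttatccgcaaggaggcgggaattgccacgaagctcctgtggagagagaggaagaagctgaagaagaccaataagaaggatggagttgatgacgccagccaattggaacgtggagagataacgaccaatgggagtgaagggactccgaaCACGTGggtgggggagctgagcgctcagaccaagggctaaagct

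Windows from 250 bases before to 50 bases after the start were found for 73 of the 89 genes (78 windows) and were searched on both strands for 5 motifs, none of which contains another. The E-box CACGTG was present in 7 of the 78 windows (8.97%) and in 7.15% of all 32851 promoter windows. It was found in windows of Atp5g1, Atp5g3, Atp5l and Atp5pb of complex V and of Ndufa7 and Ndufv1 of complex I, and in none of complexes II, III and IV. The RUNX motif TGTGGT was held by 9 windows (11.5%), against 16.8% of all. Motifs known from promoters of mitochondrial genes stood at higher shares: the NRF1 core GCGCATGC in 12 windows (15.4% against 2.71% of all), the YY1 motif AAGATGGC in 10 (12.8% against 2.75%) and the ETS motif CCGGAAGT in 5 (6.41% against 3.89%). A match describes these letters only and is no measure of binding.

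In complex I, the NADH dehydrogenase and the largest of the complexes, 42 of 43 genes had a log2 fold change above 0 (median 0.28) and 27 were separated upward, with 22 at an unadjusted p under 0.05 (limma). Over all genes 15.5% were separated upward and 13.2% were higher at that unadjusted p. Among genes with a mean log2 signal of 9.42 to 11.6, 33.3% were separated upward. Both genes past the test belong to complex I, and they play different parts. Ndufaf4 is an assembly factor that is absent from the finished complex. Its log2 signals were 8.70, 8.94 and 8.87 on RUNX2/MYC replicates 1 to 3 and 7.78, 8.13 and 8.03 on WT replicates 1 to 3, so that the groups lay well apart. Ndufaf4 rose by 0.85 on the log2 scale (standard error, SE, 0.12, 95% interval 0.56 to 1.14, adjusted p = 0.0278 from limma), a fold of 1.81. Ndufab1 is the mitochondrial acyl carrier protein, which is a subunit of complex I and also serves fatty acid and iron-sulfur cluster synthesis. It measured 10.05, 10.23 and 10.09 on the RUNX2/MYC arrays and 9.63, 9.62 and 9.65 on the WT arrays, the WT values lying close together. Ndufab1 rose by 0.49 (SE 0.09, 95% interval 0.28 to 0.69, adjusted p = 0.0462 from limma). The calls varied when single arrays were left out. With RUNX2/MYC replicate 1 left out, limma gave adjusted p-values of 0.0424 for Ndufaf4 and 0.0459 for Ndufab1, and with WT replicate 3 left out, 0.0484 and 0.0709. Leaving out RUNX2/MYC replicate 2 gave 0.139 and 0.177, RUNX2/MYC replicate 3 gave 0.133 and 0.181, WT replicate 1 gave 0.0841 and 0.158, and WT replicate 2 gave 0.119 and 0.23. In these last fits few probe sets of any gene passed: 3, 3, 4 and 3 as higher, in that order, and 0 as lower. With all 6 arrays 596 probe sets passed as higher and 45 as lower. Over all arrays left out in turn, log2 fold changes lay between 0.75 and 0.93 for Ndufaf4 and between 0.44 and 0.52 for Ndufab1.

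The other assembly factors of complex I also lay above WT. All 7 that were measured had a log2 fold change above 0 (median 0.36) and 6 were separated upward, against 15.5% of all genes. Ndufaf6, needed early in assembly, had signals of 7.43, 7.30 and 7.73 in RUNX2/MYC and 6.80, 6.88 and 6.80 in WT. These groups did not overlap, and the log2 fold change was 0.66 (SE 0.12) with an adjusted p of 0.0551 from limma, just above the threshold. Ndufaf1 stood at 0.38, Ndufaf5 at 0.36, Ndufaf7 at 0.26, Ndufaf2 at 0.18 and Ndufaf3 at 0.08 on the log2 fold change scale. Ndufaf3 was the factor whose groups overlapped, and its value turned to -0.02 under renewed quantile normalization and 75th percentile centring, to -0.07 under cyclic loess and to -0.01 without RUNX2/MYC replicate 2.

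Core subunits of complex I bind the flavin and the iron-sulfur clusters along which electrons move. The 6 of them that were measured had log2 fold changes between 0.20 and 0.45 (median 0.29), and none passed the test. Ndufs1, the large iron-sulfur subunit, had signals of 9.60, 9.84 and 9.87 in RUNX2/MYC and 9.14, 9.27 and 9.55 in WT. The lowest RUNX2/MYC array lay only slightly above the highest WT array, and the log2 fold change was 0.45 (SE 0.14, adjusted p = 0.15 from limma). The flavoprotein gene Ndufv1 read 10.20, 10.49 and 10.26 against 9.84, 9.96 and 9.96, a separated difference of 0.40 (SE 0.10, adjusted p = 0.114). Ndufs3 (0.36) and Ndufv2 (0.20) were also separated, whereas the groups overlapped for Ndufs8 (0.21) and Ndufs7 (0.20).

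The 30 other genes of complex I, mostly accessory subunits, had log2 fold changes between -0.04 and 0.59 (median 0.26). Of these, 17 were separated upward, against 15.5% of all genes. Ndufb8, an accessory subunit of the membrane arm, had the highest of these at 0.59 with the RUNX2/MYC arrays far apart, at 10.05, 10.36 and 9.59, and WT at 9.26, 9.42 and 9.56. Its replicate 3 lay just above the WT arrays (SE 0.20, adjusted p = 0.174 from limma). Ndufs5 spread further, with 8.47, 9.04 and 8.40 against 8.30, 7.79 and 8.38, and a log2 fold change of 0.48 (SE 0.22, 95% interval -0.05 to 1.01). Ndufa4l2, a relative of Ndufa4 known from hypoxic cells, was the gene of complex I with a value below 0, at -0.04 (95% interval -0.33 to 0.24), and it was above 0 under renewed quantile normalization (0.07), median centring (0.04), cyclic loess (0.11) and when RUNX2/MYC replicate 3 (0.02) or WT replicate 2 (0.06) was left out.

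**Figure D2:**
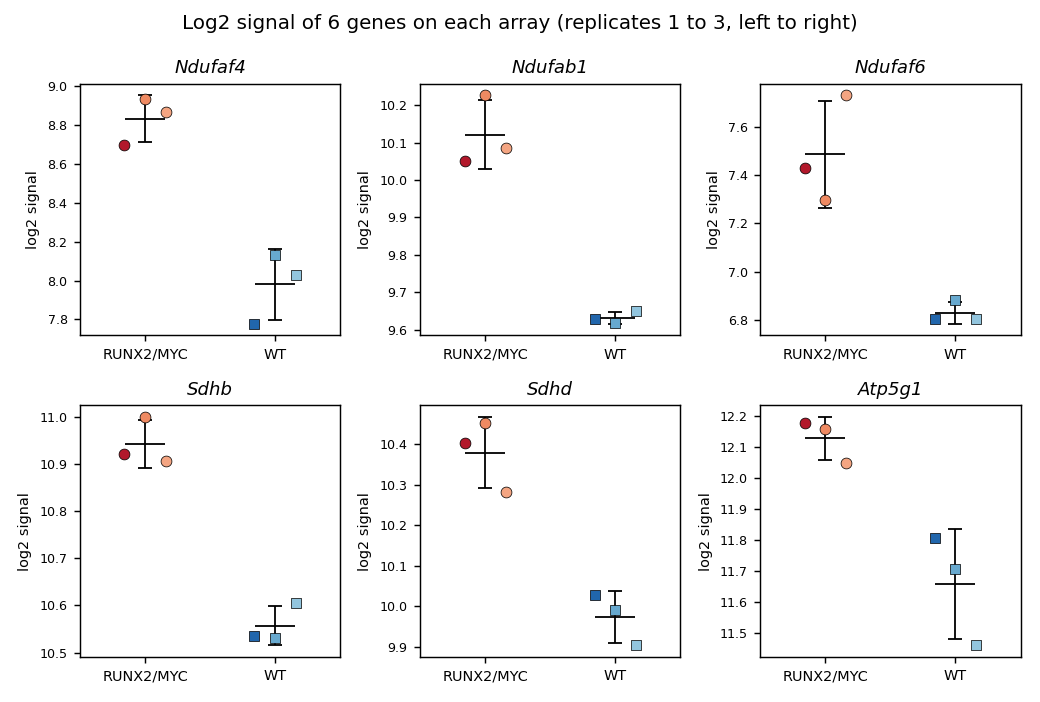
Log2 signal (y axis, each panel on its own scale) of Ndufaf4, Ndufab1, Ndufaf6, Sdhb, Sdhd and Atp5g1 on each array, with RUNX2/MYC as circles and WT as squares, replicates 1 to 3 from left to right. Horizontal lines are group means and error bars are SD (n = 3). In all 6 panels the 3 RUNX2/MYC arrays lie above the 3 WT arrays.

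Complex II, succinate dehydrogenase, is encoded entirely in the nucleus and is also an enzyme of the citric acid cycle. Its 4 genes divided into a separated pair and an overlapping pair. Sdhb, the iron-sulfur subunit, had signals of 10.92, 11 and 10.91 in RUNX2/MYC and 10.53, 10.53 and 10.61 in WT. The arrays of each group lay close together, and the log2 fold change was 0.39 (SE 0.08, adjusted p = 0.0705 from limma). Sdhd, a membrane anchor, read 10.40, 10.45 and 10.28 against 10.03, 9.99 and 9.90, also without overlap, at 0.40 on the log2 fold change scale (SE 0.09, adjusted p = 0.0792). The flavoprotein gene Sdha had 11.01, 11.36 and 11.19 against 10.93, 11.06 and 10.92, so that RUNX2/MYC replicate 1 lay below WT replicate 2 (0.21, SE 0.11). The second anchor, Sdhc, differed by 0.04 (95% interval -0.15 to 0.23), and its value was -0.07 under renewed quantile normalization, -0.05 with 75th percentile centring and -0.10 under cyclic loess.

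All 8 genes of complex III, cytochrome bc1, had log2 fold changes above 0 (median 0.25), 4 were separated upward and 0 passed the test at an adjusted p of 0.05 (4 at an unadjusted p under 0.05, limma). Over all genes 15.5% were separated upward and 13.2% were higher at that unadjusted p. Among genes with a mean log2 signal of 9.42 to 11.6, 33.3% were separated upward. The highest 3 of these 8 genes of complex III were small supernumerary subunits. Uqcr11 measured 10.30, 10.47 and 9.93 in RUNX2/MYC and 9.76, 9.76 and 9.91 in WT, a difference of 0.42 (SE 0.15) in which RUNX2/MYC replicate 3 almost touched WT replicate 3. Uqcr10 was separated more clearly, at 9.40, 9.53 and 9.26 against 9.0, 9.04 and 9.03 (0.37, SE 0.10, adjusted p = 0.11 from limma). Uqcrq followed at 0.33 (SE 0.09). The 3 larger structural and catalytic members under the Uqcr symbols, the Rieske iron-sulfur protein Uqcrfs1 (0.28) and the core proteins Uqcrc2 (0.23) and Uqcrc1 (0.22), differed less, and only Uqcrc2 was separated. Cyc1, which encodes cytochrome c1 of the same complex, falls outside these symbols and is counted below among electron carriers. Its log2 fold change was 0.41 (SE 0.11, adjusted p = 0.116 from limma), with the groups separated upward. The lowest were Uqcrh at 0.15 and Uqcrb at 0.11, and Uqcrb had -0.0039 under cyclic loess.

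Complex V, ATP synthase, had the largest share of separated genes. For 15 of 17 every RUNX2/MYC array lay above every WT array, all 17 had log2 fold changes above 0 (median 0.23), and 8 had an unadjusted p under 0.05, although 0 passed the adjusted test (limma). Over all genes 15.5% were separated upward. The median log2 signal of complex V, 11.89, lay above the range of 9.42 to 11.6 used for genes of like signal. Whether complex V differed from genes as bright as its own was not tested. The separated genes included all 5 of the catalytic F1 part, all 4 of the peripheral stalk and all 3 that encode the c subunit of the membrane ring. In the peripheral stalk, Atp5h and Atp5pb were separated on their brightest probe set only, and the groups overlapped on their other probe sets. Atp5g1, 1 of the 3 genes for that identical mature c subunit, had signals of 12.18, 12.16 and 12.05 in RUNX2/MYC and 11.81, 11.71 and 11.46 in WT. The groups lay clearly apart, and the log2 fold change was 0.47 (SE 0.11, adjusted p = 0.0926 from limma), and Atp5g2 (0.25) and Atp5g3 (0.21) were separated by less.

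In the F1 part the differences were small and the arrays close. Atp5a1, the alpha subunit, read 12.13, 12.25 and 12.14 against 11.92, 11.97 and 11.93 (log2 fold change 0.23, SE 0.08). Atp5b, the catalytic beta subunit, read 13.01, 13.09 and 13.06 against 12.94, 12.97 and 12.95, without overlap although the difference was only 0.10 (95% interval -0.08 to 0.29). Atp5c1 (gamma, 0.23) and Atp5d (delta, 0.23) resembled Atp5a1 in size, and Atp5e (epsilon) had 0.45 with a wider spread (SE 0.16). The 2 genes of complex V that overlapped were Atp5l and Atp5j2, which encode small membrane subunits. Atp5l had 9.79, 9.95 and 9.68 against 9.31, 9.81 and 10.01, with WT replicate 3 the highest of all arrays, and its value of 0.10 (95% interval -0.34 to 0.53) turned to -0.10 without WT replicate 1, to -0.05 under cyclic loess, to -0.01 under renewed quantile normalization, to -0.04 with array weights and to just below 0 with 75th percentile centring. Atp5h of the peripheral stalk had the lowest value, 0.09, and it was -0.01 under renewed quantile normalization and 75th percentile centring and -0.03 under cyclic loess.

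Complex IV, cytochrome c oxidase, had the lowest median of the 5 complexes, 0.11. Of its 17 genes 5 were separated upward (29.4%), 4 had a log2 fold change below 0 and 1 had an unadjusted p under 0.05 (limma). Over all genes 15.5% were separated upward and 13.2% were higher at that unadjusted p. Among genes with a mean log2 signal of 9.42 to 11.6, 33.3% were separated upward and the median was 0.13. Whether complex IV differed from those genes or from the other complexes was not tested. Its genes fell into common subunits and tissue isoforms. Of the 10 common ones 9 had values above 0 (median 0.13) and 5 were separated. Cox5a, an early assembling subunit, had the highest of these: 10.37, 10.50 and 10.34 in RUNX2/MYC and 10.13, 10.08 and 10.11 in WT, with no overlap (0.30, SE 0.08, adjusted p = 0.133 from limma). Cox4i1, the general isoform of subunit 4, had 10.64, 10.80 and 10.47 against 10.51, 10.51 and 10.63 and overlapped (0.09, 95% interval -0.17 to 0.34). Cox6a1 had a value below 0 (-0.06, 95% interval -0.32 to 0.19).

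None of the 7 tissue isoforms of complex IV was separated in either direction, and their log2 fold changes ran from -0.20 to 1.08. Cox8b and Cox7a1, isoforms of heart and skeletal muscle that brown fat also uses, had the highest values of the complex, and both rested on 1 array. Cox8b measured 6.92, 10.12 and 7.14 on RUNX2/MYC replicates 1 to 3 and 6.92, 7.31 and 6.73 on the WT arrays. Replicate 2 stood far above the rest while the others overlapped, so that the log2 fold change of 1.08 had a SE of 0.80 and was 0.05 without that array. Cox7a1 behaved alike, with 7.89, 9.65 and 7.95 against 7.96, 8.01 and 7.72, a log2 fold change of 0.60 (SE 0.45) and of 0.02 without replicate 2. The muscle isoform Cox6a2 was not high on that array, at 8.88, 8.45 and 8.73 against 8.61, 8.53 and 8.38 (0.18, SE 0.13). The remaining isoforms, known mainly from lung or testis, were Cox6b2 (0.02, but -0.07 with 75th percentile centring, -0.06 with array weights, and -0.03 and -0.04 when RUNX2/MYC replicate 2 or WT replicate 3 was left out), Cox7b2 (-0.06, but 0.02 with median centring), Cox8c (-0.19) and Cox4i2 (-0.20).

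RUNX2/MYC replicate 2 was also the array with the highest adipocyte markers. Of 12 measured markers of brown and white fat (13 listed) 9 were highest there, and their summed signal on the log2 scale was 12.37 on that array and 10.72 to 11.03 on the other 5. Ucp1, the uncoupling protein of brown fat, read 9.93 on that array and 6.12 to 6.95 on the others, and Car3, a carbonic anhydrase abundant in fat and muscle, 10.57 against 6.75 to 7.85. Muscle markers did not share this, since none of 12 was highest on replicate 2 and their summed log2 signal there, 10.82, was the lowest of the 6 arrays (highest 11.10). What part these markers have in the signals of Cox8b and Cox7a1 was not tested. For the 89 genes together the median log2 fold change was 0.18 without replicate 2, 81 were above 0, 54 were separated upward (2 arrays against 3) and 0 passed the test at an adjusted p of 0.05 (limma), a fit in which 3 of all probe sets passed.

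**Figure D3:**
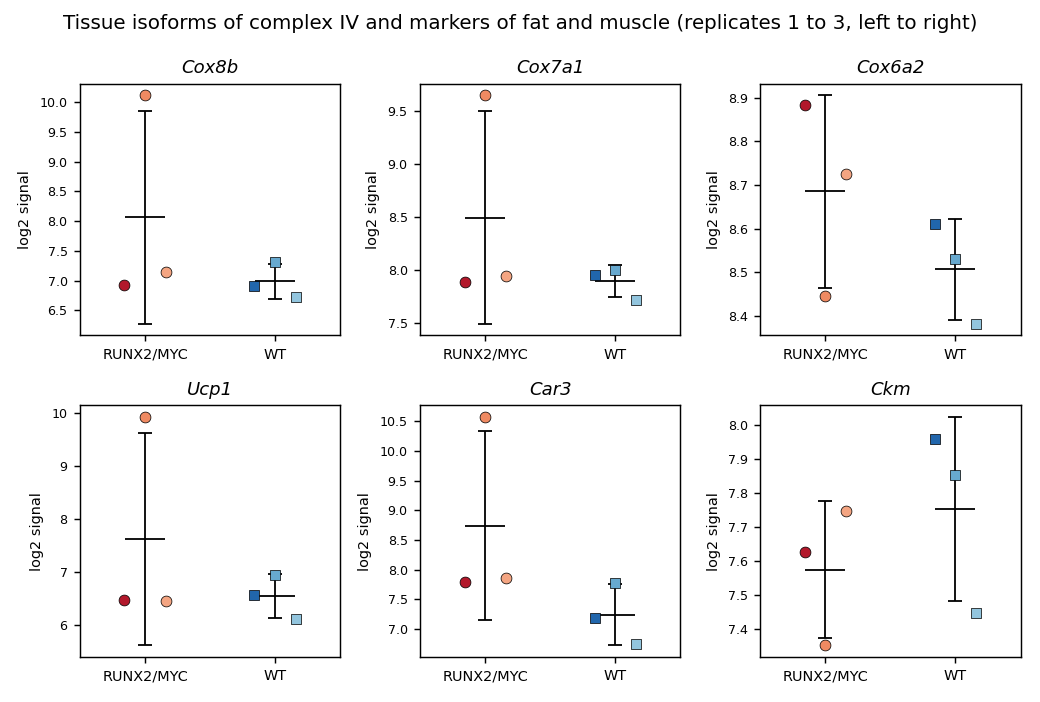
Log2 signal (y axis, each panel on its own scale) of the complex IV isoforms Cox8b, Cox7a1 and Cox6a2, the fat markers Ucp1 and Car3 and the muscle marker Ckm on each array, with RUNX2/MYC as circles and WT as squares, replicates 1 to 3 from left to right, and group means with SD (n = 3). Cox8b, Cox7a1, Ucp1 and Car3 are high on RUNX2/MYC replicate 2 alone, and Cox6a2 and Ckm are not.

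Thymocyte markers were bright on all arrays, with a summed log2 signal of the 11 measured markers (12 listed) between 15.34 and 15.66, in keeping with the label of the tissue. The log2 fold change was below 0 for 8 of the 11, and every RUNX2/MYC array lay below every WT array for 3 of them, the coreceptor gene Cd4 (-0.74), the recombinase gene Rag1 (-0.62) and Dntt (-0.52), which encodes terminal transferase, while Cd3d (0.32) was separated upward. None of these passed the adjusted test (limma, unadjusted p of 0.0040 for Cd4, 0.0046 for Rag1, 0.0108 for Dntt and 0.0226 for Cd3d). The 9 markers of thymic epithelium all had log2 fold changes below 0 (summed signal 13.44 to 13.63 in RUNX2/MYC and 13.86 to 14.03 in WT). So did 7 of 9 macrophage and dendritic cell markers, 4 of 4 B-cell markers and 8 of 8 fibroblast and endothelial markers. Of all 19938 genes 11931 were below 0 (median -0.07), and 11.2% were separated downward. List medians were -0.11 for thymocytes, -0.30 for epithelium and -0.18 for macrophages and dendritic cells. They were -0.25 for B cells and -0.08 for fibroblasts and endothelium, the last near the value of all genes. The summed log2 signal of the 3 measured erythroid markers (6 listed) was 11.31, 10.41 and 9.94 on RUNX2/MYC replicates 1 to 3 and 9.86, 9.45 and 9.58 on the WT arrays, without overlap. Alas2, the erythroid enzyme of heme synthesis, had a log2 fold change of 1.17 (unadjusted p = 0.0181 from limma) and Slc4a1, the anion exchanger of red cells, of 0.64, both separated upward but neither past the adjusted test, and Klf1 had -0.09. What part these marker differences have in the values of the 89 genes was not tested.

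Most of the 89 genes shared their highest array within RUNX2/MYC. The median of each array's difference from the WT mean was 0.18 on RUNX2/MYC replicate 1, 0.32 on replicate 2 and 0.17 on replicate 3, and it lay between -0.01 and 0.02 on the WT arrays, so that every RUNX2/MYC array lay above every WT array. Replicate 2 was the highest of its group for 72 of the 89 genes (80.9%), whereas it was the highest for 35.4% of all genes and for 63.4% of genes of the same signal range. This held in each complex, with 37 of 43 genes of complex I, 4 of 4 of complex II, 6 of 8 of complex III, 12 of 17 of complex IV and 13 of 17 of complex V. It was not particular to these complexes. Replicate 2 was also the highest of its group for 63 of the 77 genes of mitochondrial ribosomal proteins (81.8%).

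**Figure D4:**
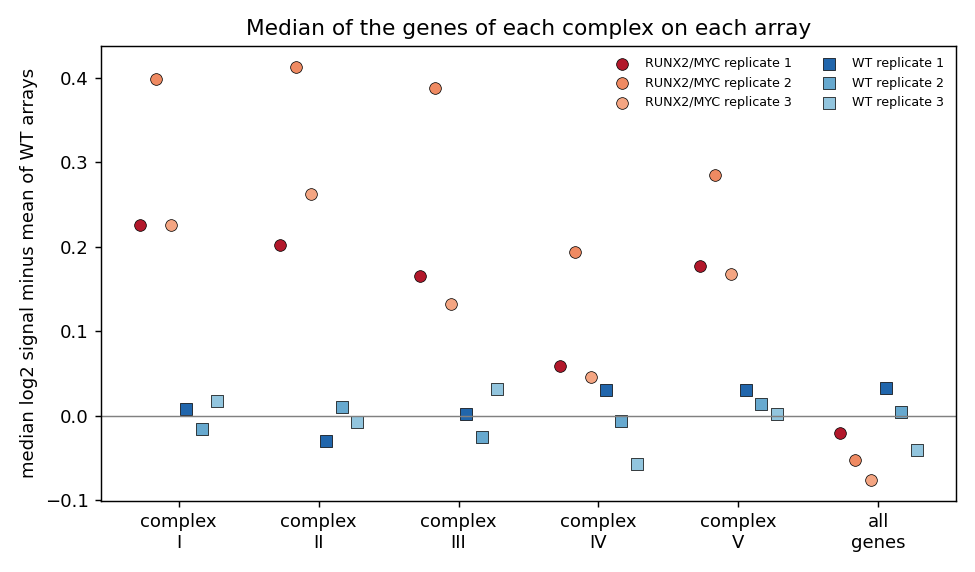
Median, over the genes of each complex and over all genes, of the log2 signal on each array minus the mean of the WT arrays (y axis), with RUNX2/MYC as circles and WT as squares. In each complex the circle of RUNX2/MYC replicate 2 is the highest (0.40, 0.41, 0.39, 0.19 and 0.28 for complexes I to V), whereas for all genes that array lies at -0.05.

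The spread between arrays of a group was somewhat below that of genes in general and nearer to that of genes of like signal. The median pooled within-group SD (log2 scale) was 0.117 over the 89 genes, 0.139 over all genes and 0.126 over genes of like signal. It was 0.121 in complex I, 0.0617 in complex II, 0.125 in complex III, 0.124 in complex IV and 0.103 in complex V. The 5 largest were those of Cox8b (1.28), Cox7a1 (0.72), Ndufs5 (0.34), Ndufb8 (0.29) and Atp5l (0.27). For 17 of the 89 genes more than 1 probe set was paired with the symbol (42 in all), and their log2 fold changes differed by 0.0525 in the median and by at most 0.158, with no change of sign or call. Separation of the groups did change with the probe set. Atp5h, Atp5pb, Cox6c and Uqcr11 were separated upward on the brightest probe set only, and Ndufb11 only on the less bright one. Cox7c and Ndufb4 were not counted, because their probe sets are paired with a second gene as well, and with them added the 91 genes had the same median (0.23) and 2 calls.

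**Figure D5:**
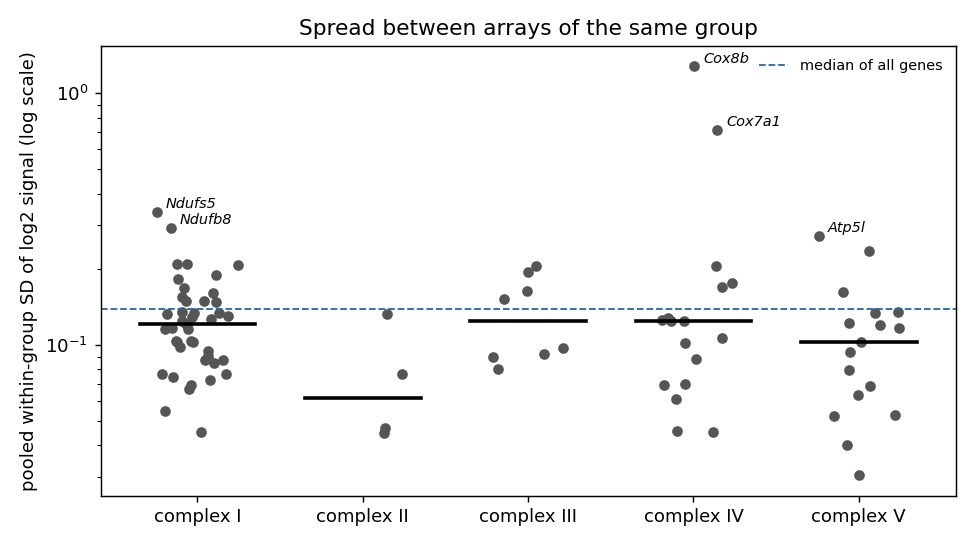
Pooled within-group SD of the log2 signal (y axis, log scale) of each of the 89 genes by complex, with medians as bars and the median of all genes (0.139) as a dashed line. The 5 named genes are those of largest SD, led by Cox8b (1.28) and Cox7a1 (0.72), and the genes of complex II lie lowest (median 0.0617).

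Subunits encoded by mitochondrial DNA fall outside the symbols above, and the annotation names only 2 of 13, under their older symbols COX2 (complex IV) and ND3 (complex I), a match made after the current symbols were not found. COX2 had signals of 13.60, 13.27 and 13.53 in RUNX2/MYC and 13.55, 13.53 and 13.60 in WT, with overlap (-0.09, 95% interval -0.35 to 0.17). ND3 had 12.83, 12.57 and 12.71 against 12.65, 12.49 and 12.60, again with overlap (0.12, 95% interval -0.11 to 0.36), and its second probe set differed in sign (-0.06). Among the RUNX2/MYC arrays both genes were lowest on replicate 2, the array of that group on which most of the nuclear genes were highest. Nuclear copies of mitochondrial DNA can share such sequence, and what part they have in these signals was not tested.

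Genes that work with the complexes lay in the same direction. Over all genes 40.2% had a log2 fold change above 0 and 2.27% passed the adjusted test as higher. Among genes with a mean log2 signal of 9.42 to 11.6, 186 of 3464 passed as higher. The call of 1 in 41 among the assembly factors below was near the share of all genes. Of 41 measured assembly factors outside the Nduf names 39 had a log2 fold change above 0 (median 0.32), and Lrpprc, which stabilizes mitochondrial messenger RNA, passed the test: it read 9.65, 9.79 and 9.93 in RUNX2/MYC and 8.97, 9.14 and 9.20 in WT, and rose by 0.68 (SE 0.11, adjusted p = 0.0371 from limma). The next largest, the complex I assembly factor Tmem126a, had 0.65 without passing. Of 20 electron carriers and enzymes of ubiquinone synthesis 18 lay above 0 (median 0.26) and 0 passed an adjusted p of 0.05 (10 at an unadjusted p under 0.05, limma), with the methyltransferase Coq5 (0.55) and the prenyl chain enzyme Pdss2 (0.52) at the top.

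Of 19 genes that control mitochondrial gene expression 18 lay above 0 (median 0.27) and 2 passed the test as higher, against 2.27% of all genes. Pprc1, a coactivator of the PGC-1 family, read 8.94, 8.96 and 9.15 against 8.05, 8.42 and 8.28 and rose by 0.76 (adjusted p = 0.0354 from limma). Twnk, the helicase that replicates mitochondrial DNA, rose by 0.55 (adjusted p = 0.0468), and Tfb1m had 0.64 without passing.

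In the citric acid cycle, which supplies the electrons, 16 of 17 genes lay above 0 (median 0.33). The test was passed by 2 as higher, against 2.27% of all genes. Suclg2, a subunit of succinyl-CoA ligase, read 9.37, 9.51 and 9.44 against 8.51, 8.55 and 8.65 and rose by 0.87 (adjusted p = 0.0145 from limma). Idh3a, of the NAD-dependent isocitrate dehydrogenase, rose by 0.69 (adjusted p = 0.0385), and the NADP-dependent Idh2 was the gene below 0, at -0.25 without passing. In the 4 lists together 0 genes passed as lower. Without RUNX2/MYC replicate 2 none of these 5 genes passed the adjusted test, in a fit where 3 of all probe sets passed. The 77 genes of mitochondrial ribosomal proteins, which make the subunits encoded by mitochondrial DNA, had a median of 0.41. Of these, 11 passed the test as higher and 0 as lower, against 2.27% and 0.0953% of all genes.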

How the data were processed

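Total RNA of whole thymus was hybridized to Affymetrix MoGene-1 arrays, 3 for RUNX2/MYC and 3 for WT, grouped by the genotype in the sample titles. The log2 signals were used as deposited by the authors. According to the submitters, RMA (background correction, normalization between arrays and summary of the probes of a set) and Affymetrix Expression Console 1.4 were used, whereas in the methods the tool is Partek Genomics Suite, with adjustment for GC content ahead of RMA and then ANOVA with q values. Which of these made the table was not settled.

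Of 35556 probe sets the annotation pairs 21789 with 1 gene symbol and 1621 with several, and 12146 are not named in it. A gene was represented by its brightest probe set (mean over all arrays) among those paired with it alone. A further 6 probe sets of several symbols match the symbols and entered only as an alternative. Groups were compared with limma 3.58.1 (lmFit and eBayes, R 4.3.3) over all probe sets with Benjamini-Hochberg adjustment over all of them, and a gene was called at an adjusted p under 0.05. The fit was tested on simulated data with known changes. Lists are described by counts and medians beside all genes, with no set test.

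The genes and lists were chosen with earlier results of these data known. Genes were named by rule: those past the test, in each complex the 3 highest and 2 lowest fold changes, core subunits, tissue isoforms and the 5 largest SDs. In other lists, genes past the test and the 2 largest changes were named, and a few further genes were named after their values were seen. With arrays the number of samples limits the precision, and an exact permutation test of 3 against 3 cannot give a p below 0.1. The labels call the arrays biological replicates but do not name litters. Array medians of all probe sets were 7.31 to 7.44 in RUNX2/MYC and 7.41 to 7.49 in WT, and 75th percentiles 8.92 to 9.04 and 8.85 to 8.97. Alternatives changed the normalization, the filter on dim probe sets, the probe sets tested or averaged, the membership, the test, array weights, the replicate block and each array in turn. Promoters were taken from RefSeq (GRCm38.p6). Figures were drawn with matplotlib 3.10.9.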

Additional observations from a re-analysis of the deposited data

How the results depend on the processing

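The median log2 fold change of the 89 genes stayed above 0 under all 18 alternatives, between 0.11 and 0.31, and stayed above the median of all probe sets by 0.12 to 0.31. Median centring moved the median of all probe sets from -0.05 to 0.03 and 75th percentile centring moved it to -0.15. Counts of calls were less stable. Ndufaf4 was called in 13 of 18 alternatives and Ndufab1 in 9.

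When the values were quantile normalized again, 2 genes were higher (Ndufaf4 and Ndufaf6), medians were 0.13 over all 89, 0.20 in complex II, 0.15 in complex III and 0.13 in complex V, separated genes numbered 34 upward and 1 downward, and calls were 1 among electron carriers and 3 among other assembly factors. Ndufaf3 (-0.016), Ndufa4l2 (0.068), Sdhc (-0.066), Atp5l (-0.010) and Atp5h (-0.012) turned. With median centring 5 genes were higher, 1 of them in complex II and 1 in complex V, medians were 0.31 over all, 0.36 in complex I, 0.38 in complex II, 0.20 in complex IV and 0.31 in complex V, other assembly factors had 3 calls and mitochondrial gene expression 4, and Ndufa4l2 (0.042) and Cox7b2 (0.024) turned. With 75th percentile centring 1 gene was higher, in complex I, medians were 0.13 over all, 0.18 in complex I, 0.20 in complex II, 0.015 in complex IV and 0.13 in complex V, 27 genes were separated upward and 1 downward, calls were 0 among other assembly factors, 0 in mitochondrial gene expression and 1 in the citric acid cycle, and Ndufaf3 (-0.017), Sdhc (-0.055), Atp5l (-0.00010), Atp5h (-0.011) and Cox6b2 (-0.072) turned. Under cyclic loess medians were 0.11 over all, 0.18 in complex I, 0.16 in complex II, 0.12 in complex III, 0.046 in complex IV and 0.10 in complex V, 28 genes were separated upward and 1 downward, calls were 1 among electron carriers and 3 among other assembly factors, and Ndufaf3 (-0.072), Ndufa4l2 (0.11), Sdhc (-0.10), Uqcrb (-0.0039), Atp5l (-0.052) and Atp5h (-0.027) turned. None of the turned values had passed the threshold.

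Without dim probe sets, calls were 1 among electron carriers, 3 among other assembly factors and 4 in mitochondrial gene expression. With only probe sets of 1 symbol tested, 10 genes were higher (7 in complex I, 2 in complex II and 1 in complex V), and 2 electron carriers, 8 other assembly factors, 5 genes of mitochondrial gene expression and 4 of the citric acid cycle. The methods' ANOVA with q values called 8 higher (4 in complex I, 2 in complex II, 1 in complex IV and 1 in complex V), and 2, 5 and 4 in the first 3 of those lists. With Benjamini-Hochberg adjustment in its place it called 0 genes (0 in complex I), 0 other assembly factors, 0 in mitochondrial gene expression and 1 in the citric acid cycle. Array weights (0.30 to 6.21, from an estimation that stopped before convergence) called 9165 probe sets higher and 12137 lower, and of the 89 genes 48 higher (29, 2, 4, 4 and 9 in complexes I to V) and 3 lower (1 in complex I and 2 in complex IV), with 11 electron carriers, 30 other assembly factors, 15 genes of mitochondrial gene expression and 13 of the citric acid cycle higher and 1 of the last lower. Atp5l (-0.035) and Cox6b2 (-0.061) turned there.

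Same-numbered arrays correlated in their deviations by 0.50, -0.15 and 0.61. With the other WT arrays, RUNX2/MYC replicate 1 had 0.37 and -0.63, replicate 2 had -0.15 and 0.21, and replicate 3 had -0.50 and -0.34. The methods name littermate-matched controls, but the labels do not name litters. These values do not settle whether the numbers pair the samples, and the main fit used no pairing. With the replicate block 7 genes were higher (5 in complex I, 1 in complex II and 1 in complex V), and 2 electron carriers, 4 other assembly factors, 7 genes of mitochondrial gene expression and 4 of the citric acid cycle.

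Leaving out each array in turn gave 0 to 2 genes higher (0 to 2 in complex I, 0 in the other complexes), 0 lower, a median of 0.18 to 0.26 (0.22 to 0.31, 0.24 to 0.35, 0.19 to 0.29, 0.05 to 0.16 and 0.19 to 0.24 in complexes I to V), a median SD of 0.0885 to 0.121, 54 to 65 genes separated upward and 0 to 2 downward. Calls ran from 0 to 2 among electron carriers, 0 to 4 among other assembly factors, 0 to 4 in mitochondrial gene expression and 0 to 3 in the citric acid cycle. Without RUNX2/MYC replicate 2, Ndufaf3 (range over the arrays left out -0.010 to 0.16) and Cox6b2 (-0.037 to 0.094) turned, Cox6b2 did so again without WT replicate 3, Ndufa4l2 (-0.13 to 0.056) turned when either RUNX2/MYC replicate 3 or WT replicate 2 was left out, and Atp5l (-0.10 to 0.25) turned without WT replicate 1. The cause of these shifts was not tested, except that leaving out an array also removes a degree of freedom.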
